A study of Mus musculus with 4 samples.

Results

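The genes described here write, read or remove methyl groups on DNA and methyl or acetyl groups on histones. The 56 members were listed by name, with earlier results of these data known. They fall into 5 functional groups: 7 for DNA methylation, 14 for Polycomb, 15 lysine methyltransferases, 8 lysine demethylases, and 12 for acetylation and deacetylation. A peak was counted for a member when its midpoint lay in the gene's RefSeq span (mm10). This gave 646 of the 43106 peaks of the series, or 1.5%. The members cover 0.363% of the summed span of the 21896 protein-coding genes.

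The series measured RNA bound by DHX9, a helicase that unwinds double-stranded RNA, with FLASH, in which ultraviolet light joins proteins to RNA before the antibody pull-down. Neural progenitor cells had been derived from WT26, a male mouse embryonic stem cell line of C57BL/6x129sV strain, and were kept in medium with EGF and FGF. There were 2 libraries with an antibody to DHX9 (replicates A and B), and 2 with rabbit IgG (replicates A and B) as background, all from the same untreated cell type. The data analysed were a single list of peaks for all 4 libraries. It gives neither depth nor a replicate error, and all counts below are descriptions without a test. Of markers fixed for the culture, 3 of 10 neural progenitor genes carried a peak (Slc1a3 with 122, Fabp7 with 4 and Vim with 1). The count was 1 of 6 for neuron genes (Map2 with 46) and 0 of 5 for pluripotency genes. Of the markers of other cell types, 3 of 5 oligodendrocyte lineage genes carried one (Olig1, Olig2 and Pdgfra). So did 2 of 5 mesoderm or fibroblast genes (Col3a1 with 28 and Col1a1 with 7) and 0 of 4 astrocyte genes. The share over all protein-coding genes was 18.9%.

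As background, DNA methyltransferases add methyl groups to cytosines in CpG pairs, and TET enzymes start their removal. Polycomb complex PRC2 methylates histone H3 at repressed genes, and PRC1 ubiquitinates histone H2A there. Other methyltransferases mark active promoters, enhancers or transcribed gene bodies, or repressed chromatin. Demethylases, acetyltransferases and deacetylases set these marks back or add to them. In the developing brain these enzymes act as stem cells choose their fates, and variants in many of them cause neurodevelopmental disorders.

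A promoter window, running from 250 bases before to 50 bases after a start site, was listed by RefSeq (GRCm38.p6) for 44 of the 56 members. A single member, Suz12, had a peak over such a window. Among all protein-coding genes with a window, 75 of 17491 (0.429%) had one. The Suz12 peak (chromosome 11, 79993135 to 79993266, plus strand, 132 bases) began 29 bases after the start site, and 21 of its bases lay in the window. They are shown because they are the only bound bases of a member whose sequence was at hand, and they form a run of pyrimidines, in capitals here:
Suz12 bound bases: CTTTTTTTTTTTCCTCCCTCC

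The promoters of the 4 members with a peak midpoint within 1 kb after a listed start site follow, 5′ to 3′ on the gene's strand. Capitals mark the dinucleotide CG, the substrate of the DNA methyltransferases among the members. The 4 were chosen after their values were seen.
Suz12, chr11:79992856-79993155, plus strand: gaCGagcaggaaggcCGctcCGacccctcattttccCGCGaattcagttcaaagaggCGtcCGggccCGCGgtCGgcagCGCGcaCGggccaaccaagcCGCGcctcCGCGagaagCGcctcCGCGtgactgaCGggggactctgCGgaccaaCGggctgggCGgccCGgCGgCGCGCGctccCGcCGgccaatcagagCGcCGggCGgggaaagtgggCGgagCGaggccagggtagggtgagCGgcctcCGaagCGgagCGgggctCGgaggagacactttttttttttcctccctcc
Dnmt3a, chr12:3806910-3807209, plus strand: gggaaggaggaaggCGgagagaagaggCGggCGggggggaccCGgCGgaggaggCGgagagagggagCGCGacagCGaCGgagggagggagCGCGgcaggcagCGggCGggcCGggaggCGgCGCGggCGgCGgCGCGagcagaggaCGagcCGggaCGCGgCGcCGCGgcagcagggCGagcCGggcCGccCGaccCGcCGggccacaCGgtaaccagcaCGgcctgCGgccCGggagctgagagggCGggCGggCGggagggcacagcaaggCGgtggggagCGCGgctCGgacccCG
Ehmt1, chr2:24919560-24919859, minus strand: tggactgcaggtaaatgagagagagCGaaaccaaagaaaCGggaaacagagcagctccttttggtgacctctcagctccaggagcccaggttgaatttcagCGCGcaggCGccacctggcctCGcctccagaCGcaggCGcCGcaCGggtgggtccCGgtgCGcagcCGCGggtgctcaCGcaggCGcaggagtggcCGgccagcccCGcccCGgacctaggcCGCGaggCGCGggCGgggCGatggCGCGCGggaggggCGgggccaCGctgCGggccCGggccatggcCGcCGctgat
Kdm5b, chr1:134559928-134560227, plus strand: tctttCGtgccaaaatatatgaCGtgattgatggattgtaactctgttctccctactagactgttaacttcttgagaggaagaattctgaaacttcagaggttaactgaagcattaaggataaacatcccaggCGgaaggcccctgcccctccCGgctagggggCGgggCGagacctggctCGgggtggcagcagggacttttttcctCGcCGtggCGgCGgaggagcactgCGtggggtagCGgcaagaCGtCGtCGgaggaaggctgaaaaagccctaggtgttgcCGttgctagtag

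The first peak midpoint lay 94 bases after the start site in Suz12, 148 bases after it in Dnmt3a, 523 bases in Ehmt1 and 904 bases in Kdm5b. These windows held 41, 47, 34 and 17 CG dinucleotides in the same order, a motif that reads CG on both strands. Taking the outermost window of each gene, at least 10 CG were present in 27 of 30 members with a peak (90.0%) and in 14 of 14 members without one. The share was 89.4% of the 3293 protein-coding genes with a peak and 49.7% of the 14198 without one. CG-rich promoters were thus common among the members whether or not they carried a peak.

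Of the 56 members, 40 (71.4%) carried at least 1 peak, where the background was 18.9% of all protein-coding genes (4132 of 21896). Because the members were chosen with earlier results known, the difference from the background describes these genes only and was not tested. Of 98 further genes of the same pathways, outside the list, 51 (52.0%) had a peak. At least 3 peaks lay in 33 members (58.9%, background 11.4%), at least 10 in 21 (37.5%, background 4.82%) and at least 20 in 10 (17.9%, background 2.30%). The lysine demethylases were covered completely, with 8 of 8 members, followed by the lysine methyltransferases with 12 of 15 (80.0%), DNA methylation with 5 of 7 (71.4%), acetylation and deacetylation with 8 of 12 (66.7%), and Polycomb with 7 of 14 (50%). A peak needs RNA to be present, and RNA amounts were not measured here, so stronger binding and more RNA cannot be told apart for any gene, nor can fewer cells of a type and less RNA per cell.

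**Figure D1:**
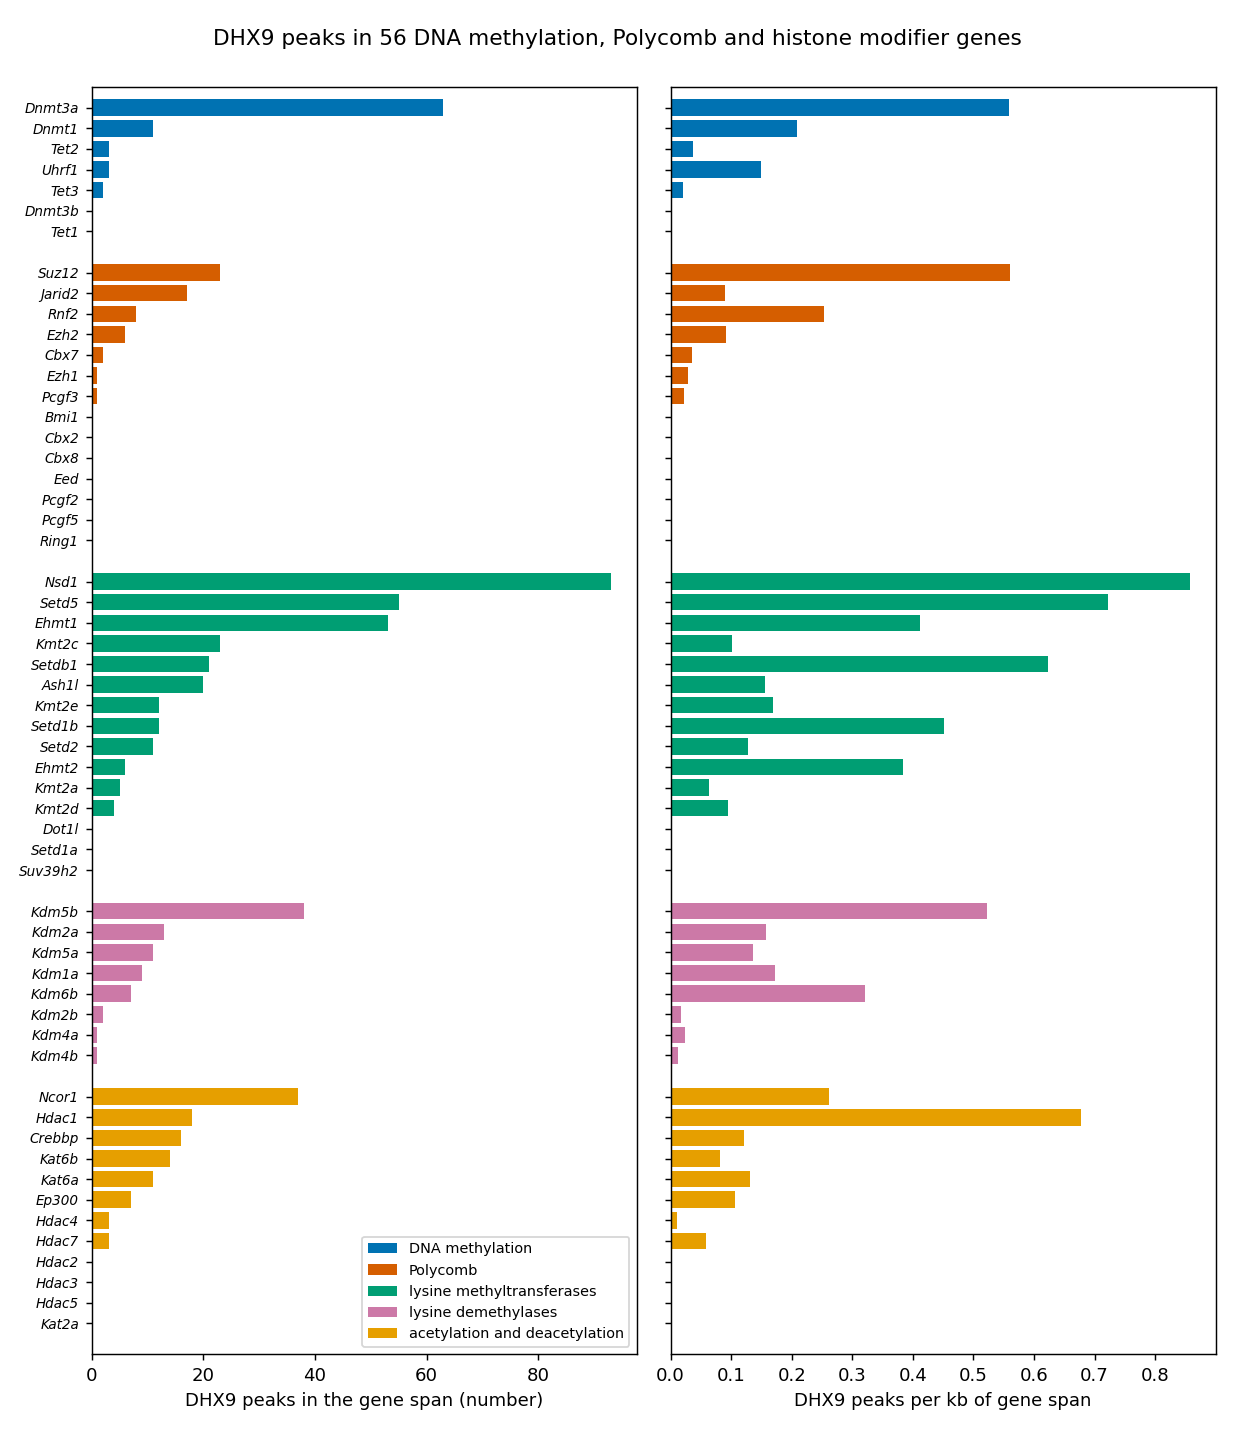
Number of DHX9 peaks in the gene span (left) and peaks per kb of span (right) for each of the 56 members, 1 bar per gene, coloured by functional group and sorted by number within it. Nsd1 has the longest bar in both panels (93 peaks, 0.857 per kb), and 16 members have no bar.

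The members are long genes, with a median span of 52.5 kb against 17.2 kb for all protein-coding genes, and longer genes carried peaks more often. Among members spanning 50 to 100 kb, 17 of 18 (94.4%) had a peak, against 841 of 2516 protein-coding genes (33.4%). For spans of 20 to 50 kb the share was 11 of 17 members (64.7%), against 25.5% of 5094 genes, and for 100 to 200 kb it was 9 of 10 members against 38.4% of 1439 genes. Below 20 kb, only Ehmt2 of 9 members had a peak (11.1%), against 8.68% of 11858 genes. The 8 short members without a peak were Bmi1, Cbx2, Cbx8, Pcgf2, Ring1, Hdac3, Kat2a and Suv39h2. Among the further genes of the same pathways, 18 of 21 spanning 50 to 100 kb had a peak. The counts were 7 of 28 below 20 kb, 16 of 30 at 20 to 50 kb, 7 of 12 at 100 to 200 kb and 3 of 7 above. A share above that of all protein-coding genes was thus not particular to the members. Across the 56 members, Spearman's rho between span and number of peaks was 0.58 (0.32 over the 40 with a peak, 0.33 over all protein-coding genes), as a description of points that share 1 peak list.

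**Figure D2:**
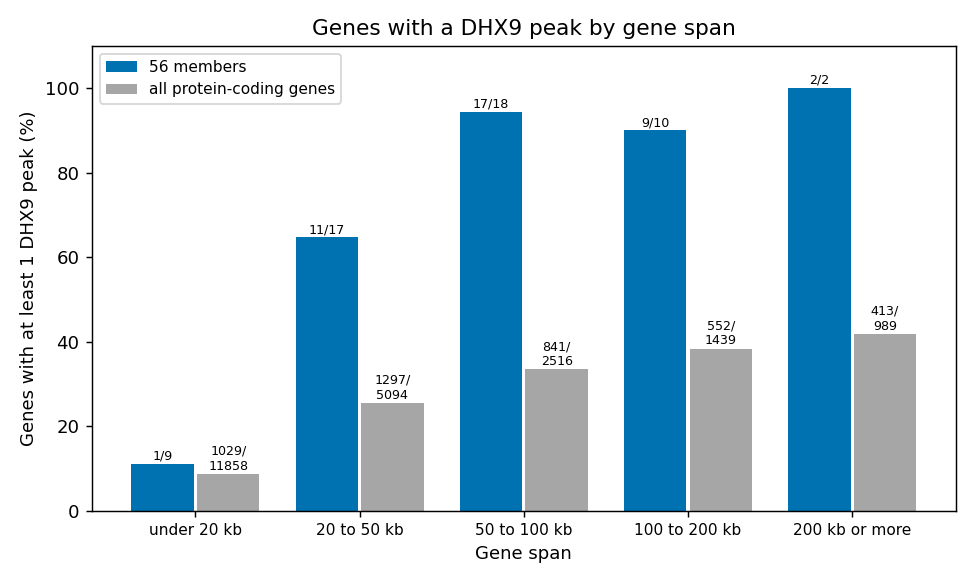
Percentage of genes with at least 1 DHX9 peak in 5 classes of gene span, for the members (blue) and for all protein-coding genes (grey), with the number of genes with a peak over the number in the class above each bar. The members' share exceeds that of all genes in the 4 classes of 20 kb or more (94.4% against 33.4% at 50 to 100 kb), while the bars are 11.1% and 8.68% in the shortest class.

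By density, the lysine methyltransferases had 315 peaks over 1106 kb (0.285 per kb), DNA methylation 82 over 483.2 kb (0.170 per kb), the demethylases 82 over 549.4 kb (0.149 per kb), acetylation and deacetylation 109 over 1030 kb (0.106 per kb) and Polycomb 58 over 643.8 kb (0.0901 per kb). All protein-coding genes together had 0.0400 per kb. The order rests in part on single genes: Dnmt3a held 76.8% of the DNA methylation peaks, and without it that group had 0.0513 per kb, the lowest of the 5 when each group was taken without its leading gene. The median over members, counting those without a peak as 0, was 0.155 per kb for the methyltransferases, 0.147 for the demethylases, 0.0693 for acetylation and deacetylation, 0.0368 for DNA methylation and 0.0109 for Polycomb. Among the members, the methyltransferases ranked at the top in each of these ways of counting. The 98 further genes of the same pathways, outside the list, gave another order. There Polycomb had 0.110 per kb, acetylation and deacetylation 0.0844, DNA methylation 0.0562, demethylases 0.0553 and methyltransferases 0.0448. The last value includes Smyd3, Mecom and Prdm16, which had 0 peaks over 566.1, 558.5 and 321.2 kb. The median over the further methyltransferase genes with a peak was 0.276 per kb, the highest of the 5 groups. Over all of the further methyltransferase genes it was 0. The order of the groups thus holds for the listed members only. Among all members, 5 genes (Nsd1, Dnmt3a, Setd5, Ehmt1 and Kdm5b) held 302 of the 646 peaks (46.8%).

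In the DNA methylation group, Dnmt3a, which sets new methylation and is needed for neurogenesis, had 63 plus-strand peaks over 112.9 kb (chromosome 12, 3801559 to 3914443; 0.558 per kb). It ranked 94th by number among the 21896 protein-coding genes. Peaks covered 10.5% of its span, and the longest (chromosome 12, 3874552 to 3875027) was 476 bases. RefSeq lists an internal start site 90.2 kb into the span, at base 3891744. Of the 63 peaks, 62 lay upstream of that site and 1 downstream of it. A single Dnmt3a peak also lay in the gene Dnmt3aos. Dnmt3b, the other de novo methyltransferase, had 0 peaks over 38.3 kb.

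Dnmt1, the maintenance methyltransferase, had 11 peaks (0.209 per kb), 9 of them within a 10-kb stretch that began 20.5 kb from the 5′ end. Uhrf1, which brings DNMT1 to newly copied DNA, had 3 peaks close together, from 15.4 to 16.4 kb into its 20.2-kb span. The TET dioxygenases, which oxidise methylcytosine, had few: Tet2 had 3 peaks, Tet3 had 2 and Tet1 had 0, over spans of 81.5, 94.8 and 82.9 kb. All 3 thus had fewer peaks than Dnmt1, whose span is shorter at 52.7 kb. Of the 2 Tet3 peaks, 1 also lay in the gene B230319C09Rik. Of 14 further genes of DNA methylation, 6 had a peak, led by Uhrf2, a relative of Uhrf1, with 8 and the helicase gene Hells with 4.

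Polycomb had the lowest share of members with a peak, and also the shortest median span of any group (33.5 kb). Its 7 members without a peak had a median span of 9.61 kb, against 45.7 kb for the 7 with one. Of those without, Bmi1, Cbx2, Cbx8, Pcgf2 and Ring1 span less than 20 kb, where few genes of any kind had a peak. In PRC2, Suz12, a core subunit needed for the activity of the complex, had 23 peaks over 41.0 kb (0.561 per kb), of which 17 lay within 10 kb. Its longest peak in no other gene (chromosome 11, 79996333 to 79996764) had 432 bases. Ezh2, the main catalytic subunit in dividing cells, had 6 peaks between 10.1 and 47.4 kb from the 5′ end of its 65.0-kb span, Ezh1, its relative, had 1 and Eed, the subunit that reads the mark, had 0. Suz12 was therefore the only core PRC2 gene among the 10 members with at least 20 peaks. Jarid2, an accessory subunit of PRC2, had 17 peaks, 15 of them on the plus strand and all of these within the first 47.2 kb of a 190.9-kb gene, followed by 143.7 kb without a plus-strand peak. The other 2 Jarid2 peaks lay on the minus strand within that stretch, next to each other (chromosome 13, 44869563 to 44869927 and 44869921 to 44870039), where RefSeq lists no other gene.

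In PRC1, Rnf2, the main ubiquitin ligase subunit, had 8 peaks over 31.6 kb (0.253 per kb), 6 of them within 10 kb. A further 2 peaks on its strand lay within 10 kb past its 3′ end, in no annotated gene. Its paralog Ring1 had 0 peaks over 3.89 kb. The chromodomain gene Cbx7 had 2 peaks and Cbx2 and Cbx8 had 0. Both Cbx7 peaks lay upstream of its listed start site, which is 38.5 kb into the span. Of the PCGF subunit genes, which tell variant PRC1 complexes apart, Pcgf3 had 1 peak and Bmi1, Pcgf2 and Pcgf5 had 0. Pcgf5 was the longest member without a peak, at 112.6 kb. Of 23 further Polycomb genes, 14 had a peak, led by the PRC1 gene Phc2 (30), the histone-binding subunit gene Rbbp4 (18) and Asxl1 (13, equal to Asxl2), a cofactor of the deubiquitinase that removes the PRC1 mark.

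Among the lysine methyltransferases, Nsd1, which methylates H3K36 and is mutated in Sotos syndrome in humans, carried the most peaks of any member: 93 over 108.5 kb (chromosome 13, 55209782 to 55318325; 0.857 per kb), all on the plus strand and in no other gene. It ranked 48th by number among protein-coding genes, and its peaks covered 15.5% of its span. A 10-kb stretch that began 6.01 kb from the 5′ end held 34 of them, and none lay between 28.5 and 48.8 kb. The longest peak of Nsd1 (chromosome 13, 55224897 to 55225440), at 544 bases, was the longest of any member in no other gene. Its relatives outside the list had fewer, with 36 in Nsd2 and 15 in Nsd3.

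Setd5, a SET-domain gene linked to intellectual disability in humans, had 55 peaks over 76.2 kb (0.722 per kb), with 26, 4, 13 and 12 in successive 25% parts of the span. The start site that RefSeq lists for Setd5 lay 27.7 kb into the span, with 28 peaks upstream of it and 27 downstream. Kmt2e, a further SET-domain gene, had 12, of which 10 lay on the plus strand. Its 2 minus-strand peaks lay at the 5′ edge (chromosome 5, 23433005 to 23433178 and 23433305 to 23433414), inside the noncoding gene 5031425E22Rik. Ehmt1, which encodes GLP, an H3K9 methyltransferase, had 53 peaks over 128.9 kb. Of these, 33 lay in a 10-kb stretch that began 1.12 kb from the 5′ end. Its partner Ehmt2, which encodes G9a, had 6 over 15.6 kb. Per kb the pair were close, at 0.411 in Ehmt1 and 0.384 in Ehmt2.

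Setdb1, an H3K9 methyltransferase that silences retroelements, had 21 peaks (0.624 per kb), while Setdb2, not among the members, had 0. Setd1b, an H3K4 methyltransferase gene, had 12 peaks over 26.6 kb, all between 10.2 and 14.6 kb from the 5′ end, while its paralog Setd1a had 0 over 22.7 kb. The MLL family genes among the members had fewer peaks per kb than the methyltransferases together (0.285), though more than all protein-coding genes (0.0400). Kmt2c had 23 peaks over 227.1 kb (0.101 per kb), Kmt2d 4 over 42.4 kb (0.0943 per kb) and Kmt2a 5 over 78.0 kb (0.0641 per kb). Kmt2b, of the same family but not among the members, had 0 over 20.2 kb. All 5 Kmt2a peaks lay between 8.80 and 9.91 kb from its 5′ end and also inside the predicted gene Gm39326, so they cannot be assigned to Kmt2a alone. Ash1l, an H3K36 methyltransferase gene, had 20 peaks, with 1, 2, 8 and 9 in successive 25% parts of its 129.0-kb span, and Setd2, which adds the third methyl group to H3K36, had 11. Dot1l and Suv39h2 had 0. Of 19 further genes of this group, 8 had a peak, led by Nsd2, Kmt5b (16) and Nsd3.

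**Figure D3:**
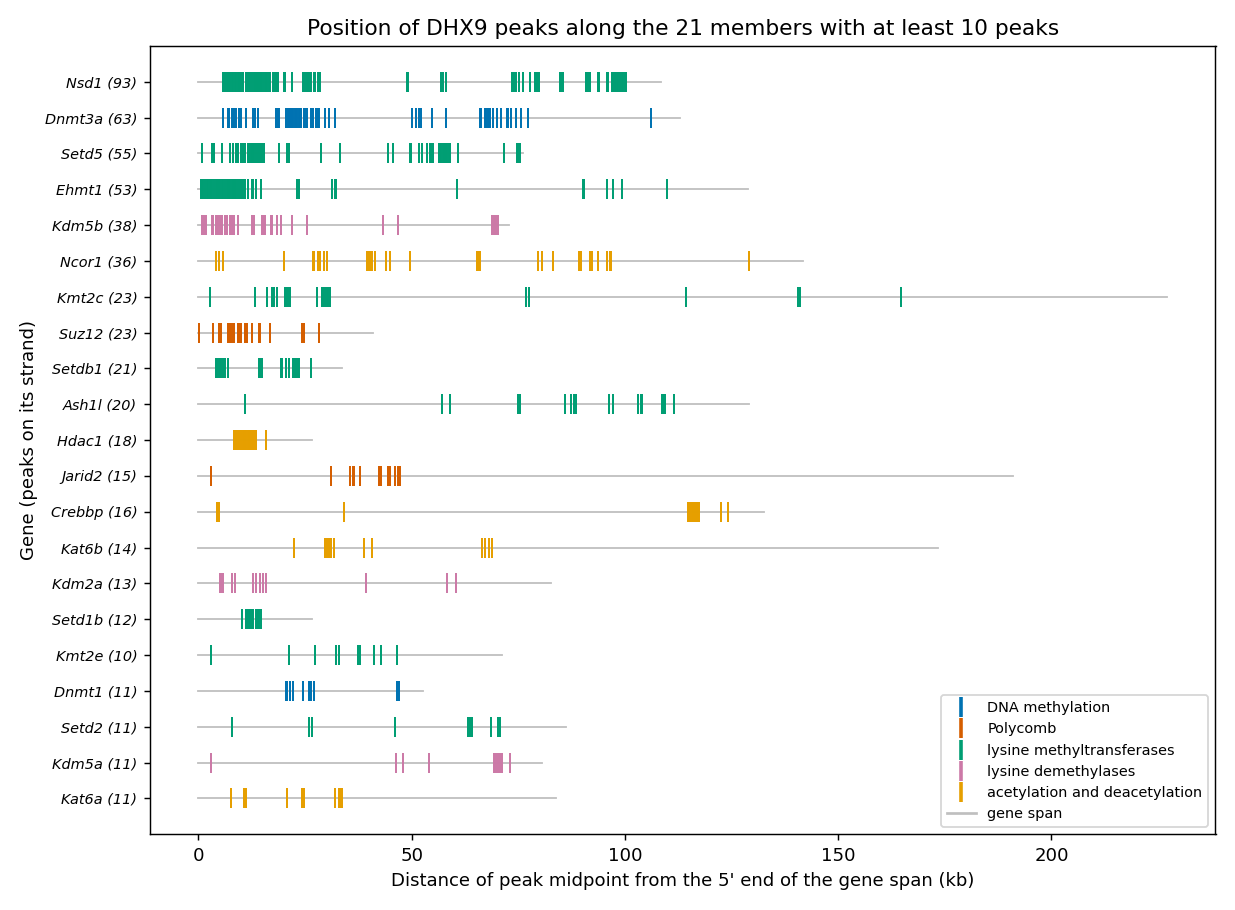
Midpoints of DHX9 peaks on the gene's strand (ticks) along the 21 members with at least 10 peaks, as distance in kb from the 5′ end of the gene span (grey line), with genes sorted by their total number of peaks and the number on the gene's strand in brackets. Ticks crowd near the 5′ end in Ehmt1, Nsd1 and Kdm5b, and in the 3′ part in Crebbp and Ash1l.

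Every one of the 8 demethylase genes had a peak, but 3 of them had only 1 or 2. Kdm5b, an H3K4 demethylase gene, had 38 plus-strand peaks over 72.7 kb (chromosome 1, 134560178 to 134632878; 0.523 per kb), with 20 in a 10-kb stretch that began 0.904 kb from the start. Of these 38, 2 also lay in the gene Mgat4e. The longest in no other gene (chromosome 1, 134578375 to 134578708) had 334 bases. Its relative Kdm5a had 11 peaks (0.137 per kb), 7 of them in a 10-kb stretch that began 69.3 kb from the 5′ end. Both genes had peaks in the last 25% of the span, 5 in Kdm5b and 7 in Kdm5a, while the first 25% held 27 in Kdm5b and 1 in Kdm5a. Outside the members, Kdm5c had 10 and the Y-linked Kdm5d had 0.

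Kdm2a, an H3K36 demethylase gene, had 13 peaks, and its paralog Kdm2b, which brings PRC1 to CpG islands, had 2 over 118.6 kb. Kdm1a, which encodes LSD1, had 9. Kdm6b, an H3K27 demethylase gene, had 7 over 21.9 kb (0.320 per kb), all between 15.3 and 21.2 kb from its 5′ end. In the same family, outside the members, the Y-linked Uty had 26 peaks and the X-linked Kdm6a had 0. Kdm4a and Kdm4b, H3K9 and H3K36 demethylase genes, had 1 peak each. Of 15 further genes of this group, 9 had a peak, led by Uty, the corepressor gene Rcor1 (14) and Kdm5c.

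Among the genes for acetylation, the paired coactivators Crebbp and Ep300, which acetylate enhancer histones, had 16 and 7 peaks and a like density of 0.121 and 0.106 per kb. In Crebbp, 13 of the 16 lay in a 10-kb stretch that began 114.8 kb from the 5′ end of a 132.6-kb gene. In Ep300, 5 of the 7 lay in a 10-kb stretch that began 30.8 kb from the 5′ end. Kat6b and Kat6a, another pair of acetyltransferase genes, had 14 peaks (0.0808 per kb) and 11 peaks (0.131 per kb), and Kat2a had 0 over 7.74 kb. All 14 Kat6b peaks lay within 68.9 kb of the 5′ end of a 173.3-kb gene.

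The deacetylase genes differed widely. Hdac1 had 18 peaks over 26.5 kb, the third highest density of any member (0.678 per kb), with all 18 between 8.40 and 15.9 kb from the 5′ end. Its close paralog Hdac2, of nearly the same span (27.6 kb), had 0, and Hdac3 had 0. The class IIa genes Hdac4 and Hdac7 had 3 peaks each and Hdac5 had 0; at 266.9 kb, Hdac4 had the lowest density of any member with a peak (0.0112 per kb). Ncor1, the corepressor that carries HDAC3, had 37 peaks over 141.8 kb (0.261 per kb). Of these, 36 lay on its own strand and 1 on the other strand. The other-strand peak and 1 own-strand peak also lay inside the overlapping gene Ttc19, so 35 Ncor1 peaks lay in no other gene. Its longest peak in no other gene (chromosome 11, 62391951 to 62392201, minus strand) had 251 bases. Of 27 further genes of this group, 14 had a peak, among them the coactivator gene Ncoa2 (15).

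**Figure D4:**
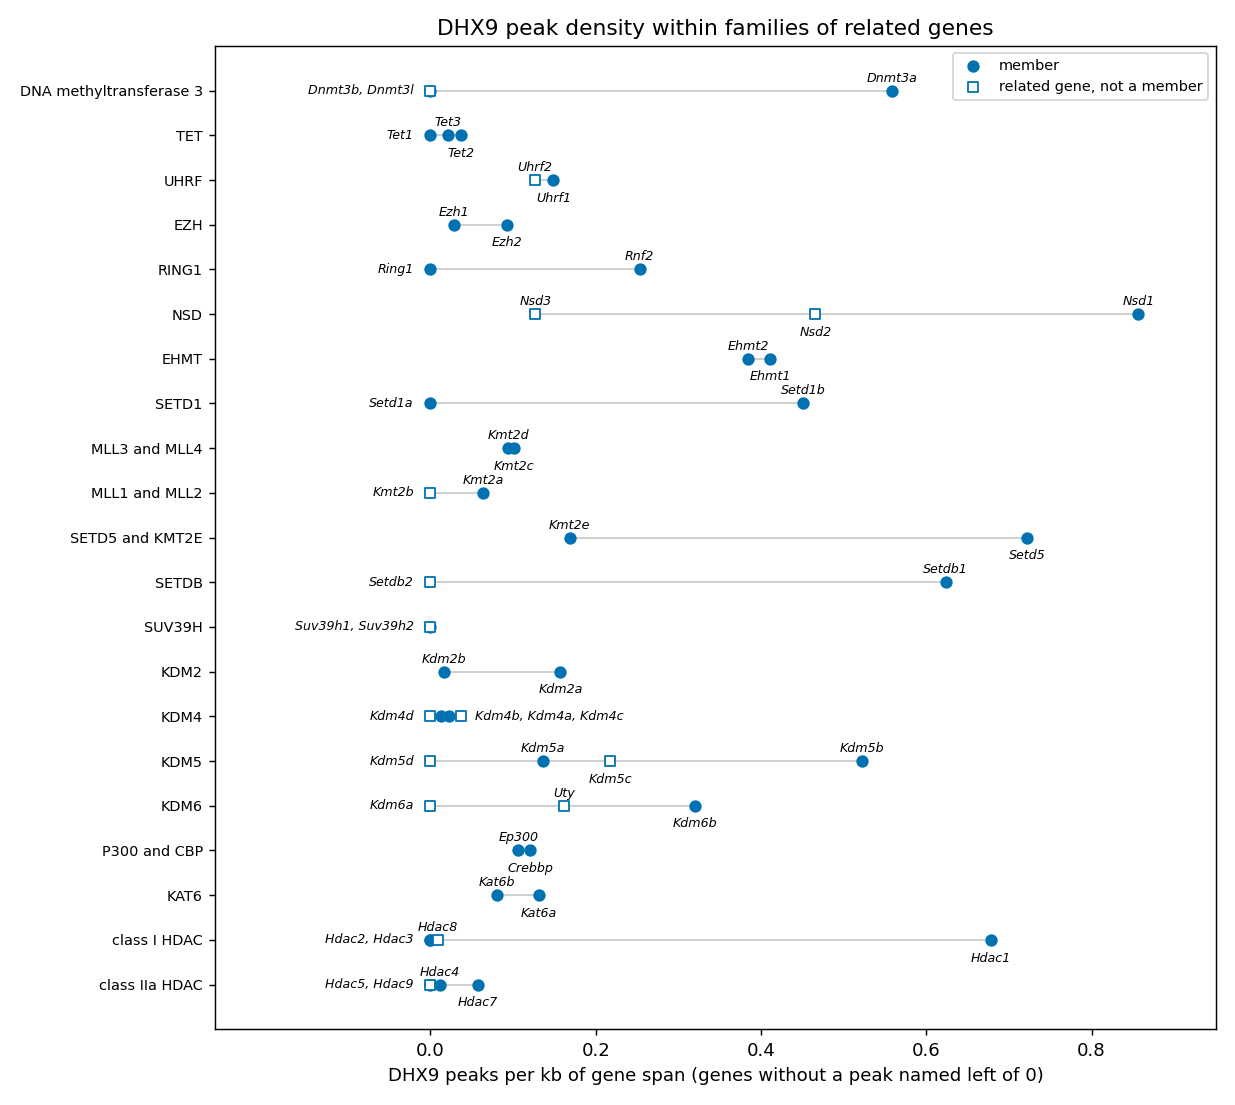
DHX9 peaks per kb of gene span for related genes, 1 row per family, with members as filled circles and related genes outside the list as open squares; genes without a peak are named left of 0. Dnmt3a, Setd1b and Hdac1 sit far to the right of at least 1 relative at 0, while Crebbp and Ep300, and Ehmt1 and Ehmt2, lie close together.

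The contrasts within families (Dnmt3a and Dnmt3b, Hdac1 and Hdac2, Setd1b and Setd1a, Rnf2 and Ring1) were picked out after their values were seen. How reads that match several paralogs were handled is unknown, and its part in these contrasts was not tested. Over the 98 further genes of the same pathways, 51 (52.0%) had a peak and the density was 0.0707 per kb.

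Peaks of the members lay almost always on the gene's own strand. Counting peaks in no other gene, and genes whose strand RefSeq lists, 435 of 437 peaks in 29 members (99.5%) were on it, against 30263 of 30403 (99.5%) over all protein-coding genes. The 2 exceptions were the pair in Jarid2. For members with no listed strand, Nsd1, Ash1l, Hdac1 and Kdm6b among them, the strand with most peaks was taken as the gene's. Of the 646 peaks, 633 lay in no other annotated gene.

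Within the span, the first 25% held 220 of the 435 own-strand peaks of those members (50.6%), against 35.3% of the own-strand peaks of all protein-coding genes. The last 25% held 50 (11.5%), against 15.8%. With the majority strand where none was listed, the first 25% held 47.0% over all members and 43.5% without Nsd1 and Dnmt3a, the members with most peaks. When each gene counted once by its median peak, the median position was 44.3% of the span for the members and 44.3% for all protein-coding genes, and the median lay in the 5′ part in 18 of 29 members (62.1%) against 56.2% of 3085 genes. By group, with strands assigned in the same way, the first 25% held 55.4% of own-strand peaks in Polycomb genes, 53.7% in demethylases, 51.4% in methyltransferases, 45.1% in DNA methylation and 25.9% in acetylation and deacetylation. Few genes weighed heavily in these shares. Jarid2 held 15 and Suz12 13 of the 31 such Polycomb peaks, Kdm5b 27 of 44 in demethylases and Dnmt3a 36 of 37 in DNA methylation. In methyltransferases, Nsd1 held 54, Ehmt1 45 and Setd5 26 of 161.

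In the 33 members with at least 3 peaks, the densest 10-kb stretch held a median of 63.6% of the gene's peaks, from 27.8% in Ncor1 to 100% in genes such as Setd1b and Hdac1. This share is high by construction in short genes and in genes with few peaks. The median distance between neighbouring midpoints was 469 bases in the members and 487 bases over all protein-coding genes. By group it ran from 430 bases in the methyltransferases to 663 bases in Polycomb genes. The median peak length was 152 bases in the members and 153 bases over all protein-coding genes, so neither peak length nor spacing set the members apart. By group, the median length ran from 134 bases in Polycomb genes to 170 bases in DNA methylation genes. Of the 3 annotated microRNA hairpins inside members (Mir7081 in Dnmt1, Mir6374 in Tet3 and Mir8101 in Hdac5), 0 had a peak over them.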

How the data were processed

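RNA bound by DHX9 was compared with rabbit IgG background in 2 libraries each, grouped by the sample titles. The authors deposited 1 list of peak positions, made with PEAKachu per the file itself, with other values such as scores left empty. The aligner Bowtie2 (version 2.2.6) and 2 genome builds, mm10 and hg19, appear per the submitters' processing notes. Settings of the peak caller, its threshold and its handling of multiply matching reads are not given in the sources used here.

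Positions were read as 1-based mm10 bases. Gene spans came from RefSeq GRCm38.p6 (49976 genes with a chromosome, 21896 protein-coding), strands and start sites from its promoter windows. Exons and the genome sequence were not used here, so peaks were not placed in exons or introns, and bound bases are shown only where a peak met a promoter window. Counting was done in Python 3.11.15 with pandas 2.3.3 and tested on simulated peaks planted in known genes. The members, lists and groups were chosen with earlier results of these data known. The genes named were, in each group, the 4 with most peaks, the 2 densest with at least 3, those with all peaks shared, those with none, and the 3 leading further genes, some of which are not reported here; the rest of the members were added for completeness. Alternatives were any overlap, longer peaks, merging within 50 bases, peaks in no other gene, own-strand peaks, at least 3 peaks, medians and leaving out the leading gene. Counting peaks up to 10 kb past the gene end was added after the data were seen.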

Additional observations from a re-analysis of the deposited data

How the results depend on the processing

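Of 132 recomputed values (members with a peak, number of peaks and peaks per kb, for each group and all members), 105 stayed within 1.5 times the reported one. Any overlap, merging, peaks in no other gene, own-strand peaks and peaks past the gene end moved none by more. Keeping only peaks of median length or longer lowers counts by construction. All members then had 322 peaks (0.0845 per kb), methyltransferases 167 (0.151), DNA methylation 45 (0.0931), demethylases 34 (0.0619), acetylation and deacetylation 54 (0.0524) and Polycomb 22 (0.0342), and 4 Polycomb genes had a peak. At least 3 peaks lay in 4 Polycomb and 5 demethylase genes. Without the member with most peaks, DNA methylation had 19 peaks (0.0513 per kb), demethylases 44 (0.0923), Polycomb 35 (0.0581) and acetylation and deacetylation 72. The median over members was 0.0849 per kb for all members, 0.155 for methyltransferases, 0.0693 for acetylation and deacetylation, 0.0368 for DNA methylation and 0.0109 for Polycomb. Among the members, the methyltransferases had the highest density in every one of these settings, while DNA methylation moved between the second and the last place. The list holds no score, so keeping the better part of the peaks by score was not run. No paired analysis was possible because the 1 list joins all libraries and carries no replicate, and no replicate could be left out. Depth is unknown, so a member without a peak is a member without a called peak.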
